A study of Mus musculus with 12 samples.

Results

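The genes described here make haemoglobin and the red cell that carries it. They are the adult alpha globin genes Hba-a1 and Hba-a2, the adult beta globin genes Hbb-bs and Hbb-bt, and the red cell genes Alas2, Slc4a1, Ahsp, Car2 and Epor. Their rows were taken by gene name, with no threshold on a measured value, and 8 of the 9 were found among the 25655 genes of each of 2 deposited tables. Ahsp was not analysed here.

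Haemoglobin is a tetramer of alpha and beta chains, each holding a heme group. Developing red cells in the bone marrow build globin and heme in step, lose their nucleus, and enter the blood with the RNA they still hold. Globin transcripts are among the most abundant of any cell, so blood left in a tissue can be seen in its RNA. The transcription factors Gata1, Klf1 and Tal1 drive this programme, and erythropoietin acting on its receptor keeps the precursors alive.

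The study profiled mesenchymal cells marked by the growth factor receptor PDGFRα, sorted from muscle and bone of mice, with 3 samples in each of 4 groups. Muscle knockout samples carried PDGFRα-CreER;Esr1flox/flox in all 3 cases, against a muscle control group of 2 samples with PDGFRα-CreER and 1 with PDGFRα-CreER;Esr1flox/+. Bone knockout samples carried PDGFRα-CreER;Esr1flox/flox in all 3 cases, against a bone control group of 2 samples with PDGFRα-CreER and 1 with Esr1flox/flox and no Cre. CreER is a Cre recombinase held inactive until tamoxifen is given, here under the Pdgfra promoter, so that Esr1, the gene of estrogen receptor alpha, can be deleted in Pdgfra-expressing cells. The controls of each tissue were therefore mixed in genotype. The series title names female mice, and the labels give no age and no tamoxifen schedule. Muscle cells were gated as negative for CD45, CD31 and Vcam1, and bone cells as negative for CD45 and CD31, with PDGFRα required in both. The labels do not tie each replicate to an animal of its own, so the spread behind the p-values is that between samples and could be technical in part.

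Levels below are the larger of the knockout and control group means of a gene, in a unit that the authors' deposited table does not name. The tables give no mean for the other group, and no library value or depth that could be tied to a labelled sample. Read by the sign of the fold change, the larger mean was the control mean for the 4 globins and Alas2 in muscle and the knockout mean for Slc4a1 and Car2 there. In bone it was the knockout mean for each gene except Slc4a1. The share of each single library taken by these genes is therefore not given, and shares are of the summed larger group means of a table. These sums were 1150351 in muscle and 1171401 in bone. The 2 tables were normalized separately, so levels set across them are descriptive.

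The targeted gene and the sorting marker were read first. In the authors' deposited table, the log2 fold change of Esr1, knockout over control, was 1.02 for muscle (p = 0.404) and -2.69 for bone (p = 0.245), and neither passed. A tag at the end of a transcript need not lie in the deleted part, so this does not check the genotypes. Pdgfra ranked 338 of the 25655 genes by larger group mean in muscle, at 494, and 5391 in bone, at 8.60, in the authors' deposited table. The 4 globin genes ranked above Pdgfra in bone by a wide margin, at 77991 to 263063, although the gate required PDGFRα protein. Whether red cells, their precursors or RNA released from them entered the sort was not tested.

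The promoters of these genes are shown because the 4 globins had the same sign as each other within each tissue, and because the alpha globin pair shares its promoter almost letter for letter. Whether promoter letters bear on these signs was not tested. RefSeq windows on GRCm38.p6 matched 6 of the 9 genes, and none was matched for Slc4a1, Ahsp and Car2. Each line gives the 250 bases before the RefSeq start, 5′ to 3′ on the gene's strand. In GENCODE, a second annotation, the genes Hba-a1, Hbb-bs, Hbb-bt and Alas2 start inside their windows, and Epor does not. Part of those windows thus lies within the GENCODE gene spans given below. Capitals mark matches on either strand to a GATA-type word, to CACCC, the core of the element bound by Klf1, or to CCAAT. The GATA-type words were AGATAA and TGATAA, and likewise AGATAG and TGATAG. Hba-a1 lies at chr11:32283422-32283671 on the plus strand, Hbb-bs at chr7:103827929-103828178 on the minus strand, Hbb-bt at chr7:103813924-103814173 on the minus strand, Alas2 at chrX:150547167-150547416 on the plus strand and Epor at chr9:21963577-21963826 on the minus strand.
Hba-a1: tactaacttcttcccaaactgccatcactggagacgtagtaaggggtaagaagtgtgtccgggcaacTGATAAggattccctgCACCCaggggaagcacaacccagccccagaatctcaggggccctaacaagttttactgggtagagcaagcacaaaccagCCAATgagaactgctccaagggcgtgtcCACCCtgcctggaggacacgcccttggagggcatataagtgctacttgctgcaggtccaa
Hbb-bs: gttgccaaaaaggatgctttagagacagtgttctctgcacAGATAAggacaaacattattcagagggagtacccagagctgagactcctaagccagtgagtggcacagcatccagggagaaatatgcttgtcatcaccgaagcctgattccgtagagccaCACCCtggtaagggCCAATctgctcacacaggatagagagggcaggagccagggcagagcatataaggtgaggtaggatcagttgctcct
Hbb-bt: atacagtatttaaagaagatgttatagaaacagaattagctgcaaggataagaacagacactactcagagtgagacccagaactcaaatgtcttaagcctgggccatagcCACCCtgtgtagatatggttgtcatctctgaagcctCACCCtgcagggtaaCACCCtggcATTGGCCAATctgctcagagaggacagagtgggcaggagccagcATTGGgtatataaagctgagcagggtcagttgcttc
Alas2: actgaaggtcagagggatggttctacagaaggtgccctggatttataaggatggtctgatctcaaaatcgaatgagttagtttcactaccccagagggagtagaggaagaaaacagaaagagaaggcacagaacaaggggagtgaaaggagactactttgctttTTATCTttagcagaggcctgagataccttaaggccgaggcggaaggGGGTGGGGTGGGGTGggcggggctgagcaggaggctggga
Epor: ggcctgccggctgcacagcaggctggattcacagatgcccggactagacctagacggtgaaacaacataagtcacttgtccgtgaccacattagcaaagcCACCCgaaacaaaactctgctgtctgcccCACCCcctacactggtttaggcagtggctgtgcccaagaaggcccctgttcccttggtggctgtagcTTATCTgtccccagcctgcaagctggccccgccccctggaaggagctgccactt

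The Hba-a2 window is not printed because it repeats that of Hba-a1. With a shift of 3 bases the windows matched at 247 of 247 positions. In Hba-a1 the GATA-type word began 183 bases before the start, CACCC 167 and 60 bases before it, and CCAAT 88 bases before it. Hbb-bs had its GATA-type word 210 bases before the start, CACCC at 90 and CCAAT at 76. Hbb-bt had 3 matches to CACCC and 3 to CCAAT, a pair of which adjoin without overlap, and none of the GATA-type words in this window. Alas2 and Epor had a GATA-type word on the opposite strand, 86 and 54 bases before the start, with 3 adjoining CACCC matches in Alas2 and 2 in Epor, and no CCAAT. Over all 32851 RefSeq windows of this length, 26.5% held a GATA-type word, 52.0% held CACCC, 33.8% held CCAAT and 3.92% held all 3. A match is a run of letters and not a measured site.

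The copies within each globin pair could be told apart to different degrees by reads from the transcript end. Of the last 150 windows of 50 bases in the GENCODE transcript of Hba-a1, 100 also occurred in that of Hba-a2, and the longest run they share is 415 bases. In the opposite direction, 84 of the last 150 windows of Hba-a2 occurred in Hba-a1. For Hbb-bs and Hbb-bt the number was 0 of 150 in either direction, although they share a run of 430 bases further from the end. How the authors counted reads that match both is not stated, so the split between Hba-a1 and Hba-a2 is uncertain. The alpha sum, and its ratio to the beta sum, depend on this too.

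Globin transcripts dominated the bone table, in which the levels given here are, by sign, those of knockout samples. Hba-a2, on chromosome 11 (32296489 to 32297298 on GRCm38), was the most abundant gene of all, with a larger group mean of 263063 in the authors' deposited table, or 22.5% of the summed means. Hbb-bs, on chromosome 7 (103826534 to 103828096), came next at 180550 in the authors' deposited table, or 15.4%. Hba-a1 (chromosome 11, 32283511 to 32284465) followed at 162143 in the authors' deposited table, or 13.8%, and Hbb-bt (chromosome 7, 103812524 to 103813996) at 77991, or 6.66%. These ranks of 1 to 4 left a wide gap to the most abundant other gene, the mitochondrial transcript mt-Co1, at 7792 in the authors' deposited table, or 0.665%.

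In muscle the same genes were abundant but not dominant, and the levels given are, by sign, those of control samples. Hba-a2 had a larger group mean of 1607 in the authors' deposited table and ranked 98, Hbb-bs had 1218 and ranked 138, Hba-a1 had 802 and ranked 215, and Hbb-bt had 265 and ranked 604. Together they made up 0.338% of the summed means, computed from the authors' deposited table. The order of these larger means was the same in both tissues, with Hba-a2 first and Hbb-bt last. Of the 4, Hbb-bt alone had a lower value than Pdgfra (494) in muscle.

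The ratio of summed alpha to summed beta larger means was close in the 2 tables, each read from a different group. The summed alpha means were 1.62 times the summed beta means in muscle and 1.64 times in bone, computed from the authors' deposited table. Within the pairs the balance differed. Hba-a2 was 2.00 times Hba-a1 in muscle and 1.62 times in bone, and Hbb-bs was 4.60 times Hbb-bt in muscle and 2.32 times in bone. By sign, the muscle ratios are those of control samples and the bone ratios those of knockout samples, so they set unlike groups beside each other, and no error can be put on them.

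The mean of the other group was estimated by dividing each larger mean by its fold change, a step chosen after the values were seen. In muscle the estimated means of all genes summed to 988696 in knockout and 1009966 in control samples. The globins then came to 2061 in knockout and 3891 in control samples, or 0.208% and 0.385% of these sums. In this estimate Hbb-bs (815), not Hba-a2 (603), was the highest globin of muscle knockout samples. Hba-a1 came to 510 and Hbb-bt to 133 there. By this estimate the alpha to beta ratio given above does not hold for muscle knockout samples. In bone the estimated means summed to 1081426 in knockout but 717841 in control samples, so the fold changes and the means there may not share a scale. With that limit, the globins of bone came to 683747 in knockout and 347952 in control samples, or 63.2% and 48.5% of these sums. They were the most abundant genes of bone by either estimate. Hba-a2 was estimated at 128628 and Hbb-bt at 39189 in bone control samples. These estimates carry no error and were not tested.

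**Figure D1:**
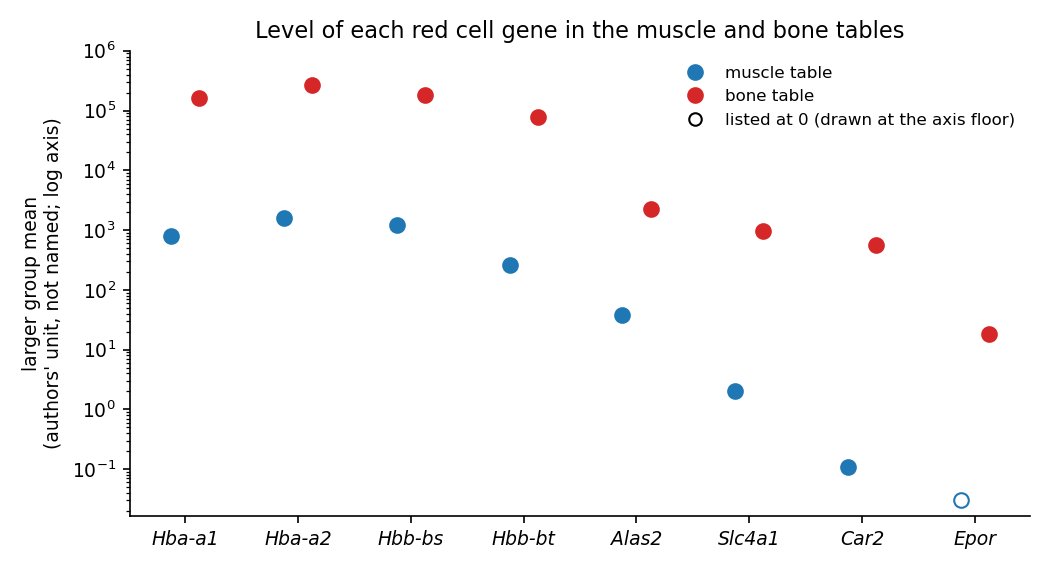
Larger group mean of each of the 8 red cell genes in the muscle table (left point of each pair) and the bone table (right point), on a log axis in the authors' unit, with no error bars because no library value could be tied to a group. The 4 globins lie between 77991 and 263063 in bone and between 265 and 1607 in muscle, and Epor, listed at 0 in muscle, is drawn as an open circle at the axis floor.

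The red cell genes other than globins were far less abundant. Alas2, on chromosome X (150547375 to 150570638), encodes the erythroid form of the enzyme that starts heme synthesis, and stood in the authors' deposited table at 37.7 for muscle and 2275 for bone. The 4 globins summed to 103 times Alas2 in muscle and 301 times in bone. By sign, the muscle ratio is of control means and the bone ratio of knockout means, so these ratios set unlike groups beside each other. Slc4a1, on chromosome 11 (102348824 to 102366203), encodes band 3, the anion exchanger of the red cell membrane. Its level was 2.04 for muscle and 968 for bone by the authors' deposited table.

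Car2, on chromosome 3 (14886273 to 14900770), encodes a cytosolic carbonic anhydrase that red cells share with bone-resorbing osteoclasts. The authors' deposited table listed it at 0.108 for muscle and 556 for bone. The muscle value was the lowest above 0 in that table, and 256 genes, Car2 included, had exactly this mean and this fold change. Its fold change in muscle therefore cannot be told from that of any other gene at this floor. Epor, on chromosome 9 (21958897 to 21963506), encodes the erythropoietin receptor of red cell precursors. The authors' deposited table listed it at 0 for muscle and 18.1 for bone.

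The muscle knockout comparison asked whether red cell genes differed with deletion of Esr1 in mesenchymal cells of muscle. All 4 globins had a negative log2 fold change, and none passed the authors' FDR of 0.05. Hba-a2 had -1.41 in the authors' deposited table, 2.67-fold lower in the knockout, with p = 0.0117 and FDR = 0.455. Hbb-bt had -0.99 (p = 0.0701), Hba-a1 -0.65 (p = 0.159) and Hbb-bs -0.58 (p = 0.212) in the authors' deposited table, with FDRs of 0.909 to 1.00. The copies of each pair thus differed in the size of the value, most for the alpha pair, whose split is uncertain. Among the 165 muscle genes at 1000 or above, a level chosen after the values were seen, Hba-a2 had the lowest log2 fold change, and the median of these genes was -0.09.

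Alas2 had the smallest p of these genes in muscle. It had -5.64 (p = 0.000409, FDR = 0.132) by the authors' deposited table and did not pass. Divided by this fold change, its level of 37.7 in control samples left an estimate of 0.758 in knockout samples, near 0. Slc4a1 had the opposite sign, 5.31 (p = 0.0969), and Car2 had 1.76 (p = 0.522) in the authors' deposited table, both at levels too low to hold an FDR. Epor had no fold change.

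In all, 0 of the 5 red cell genes with an FDR in muscle passed, where 0.127% of 7107 genes did, and 0 of 5 held an FDR under 0.1, where 0.183% did. At an unadjusted p under 0.05, reached by 11.7% of all genes with a p, 2 of the 7 genes with a p were lower (Hba-a2 and Alas2) and 0 higher. Over all 13158 muscle genes with a p, 5.31% were lower and 6.41% higher at that threshold. The median log2 fold change was -0.82 over the 4 globins and 0.12 over all genes with a p. In bulk samples, fewer cells of a type and less RNA per cell cannot be told apart.

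The bone knockout comparison put the same question to mesenchymal cells of bone. All 4 globins had a positive log2 fold change between 0.82 and 1.03, and none passed. Hba-a2 had 1.03 (2.05-fold, p = 0.0681, FDR = 0.151) in the authors' deposited table. Hbb-bs had 1.03 (p = 0.0652, FDR = 0.146), Hbb-bt 0.99 (p = 0.0747, FDR = 0.162) and Hba-a1 0.82 (p = 0.138, FDR = 0.274) in the authors' deposited table. The values of the copies lay close together here, and no error can be put on their differences.

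The other red cell genes of bone spread more widely. Alas2 had 0.74 (p = 0.180) and Car2 0.66 (p = 0.320) in the authors' deposited table, the same sign as the globins. Slc4a1, the membrane gene, had -0.01 (p = 0.989) in the authors' deposited table, near 0 where those of the globins were near 1, at a level of 968. Epor had 3.27 (p = 0.142) in the authors' deposited table, at the low level of 18.1.

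In all, 0 of the 8 genes passed in bone, where 0.0352% of 8534 genes with an FDR did. At an unadjusted p under 0.05, 0 of the 8 did, where 33.0% of the 10518 bone genes with a p did, 28.8% higher and 4.20% lower. An FDR under 0.1 was held by 0 of the 8 and by 32.2% of all genes with an FDR. These shares were much smaller at higher levels. Of the 8, 7 lay at 100 or above. Of the 738 genes at that level, 21 were higher and 20 lower at an unadjusted p under 0.05. An FDR under 0.1 was held by 32 of the 738. The 8 genes had a median log2 fold change of 0.91, 7 of 8 being positive, as were 69.7% of all genes with a p. Bone fold changes leaned upward at low levels, and the median was 2.51 over all genes with a p but 0.03 over the 738 genes at 100 or above. The larger median came from genes under 10, with a median of 4.99 over 5455 genes, against 0.27 from 10 to 100 and 0.21 at 1000 or above. Set against the abundant genes, the log2 fold changes of the bone globins were 0.79 to 1.00, while subtracting the median of all genes makes each of them negative by construction.

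**Figure D2:**
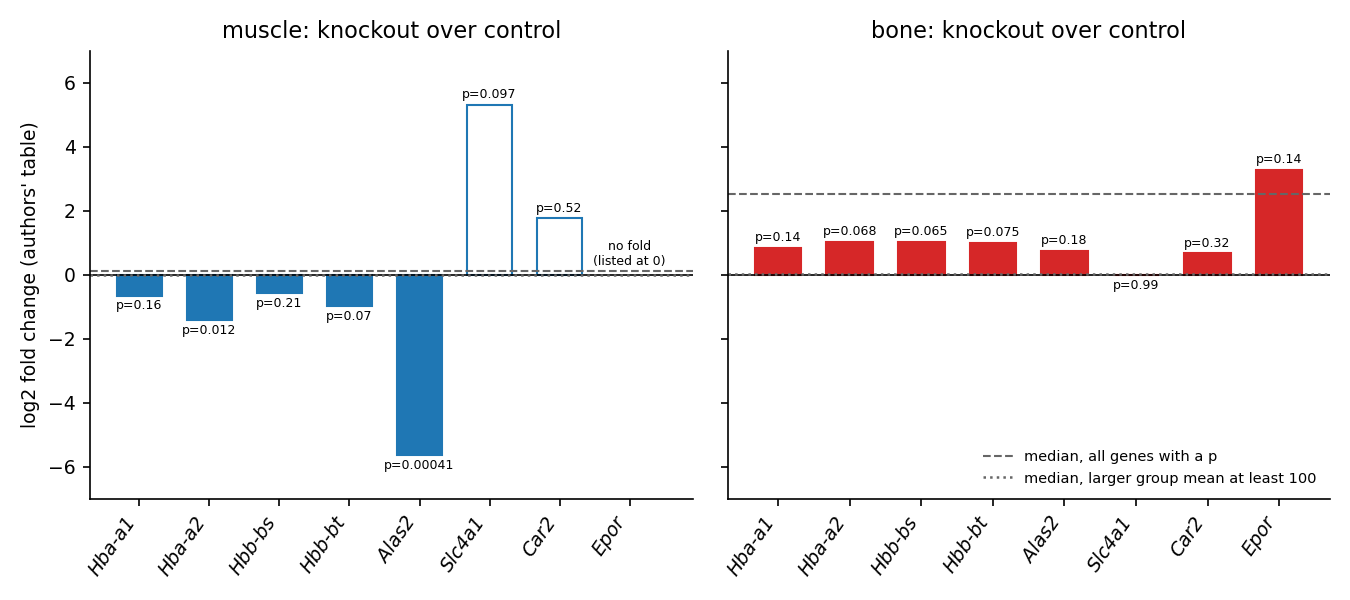
Authors' log2 fold change of knockout over control for each red cell gene in muscle (left) and bone (right), with the authors' unadjusted p above or below each bar. Open bars had no FDR, the dashed line is the median of all genes with a p and the dotted line that of genes at 100 or above. The 4 globins lie below 0 in muscle and between 0.82 and 1.03 in bone, below the dashed line there.

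**Figure D3:**
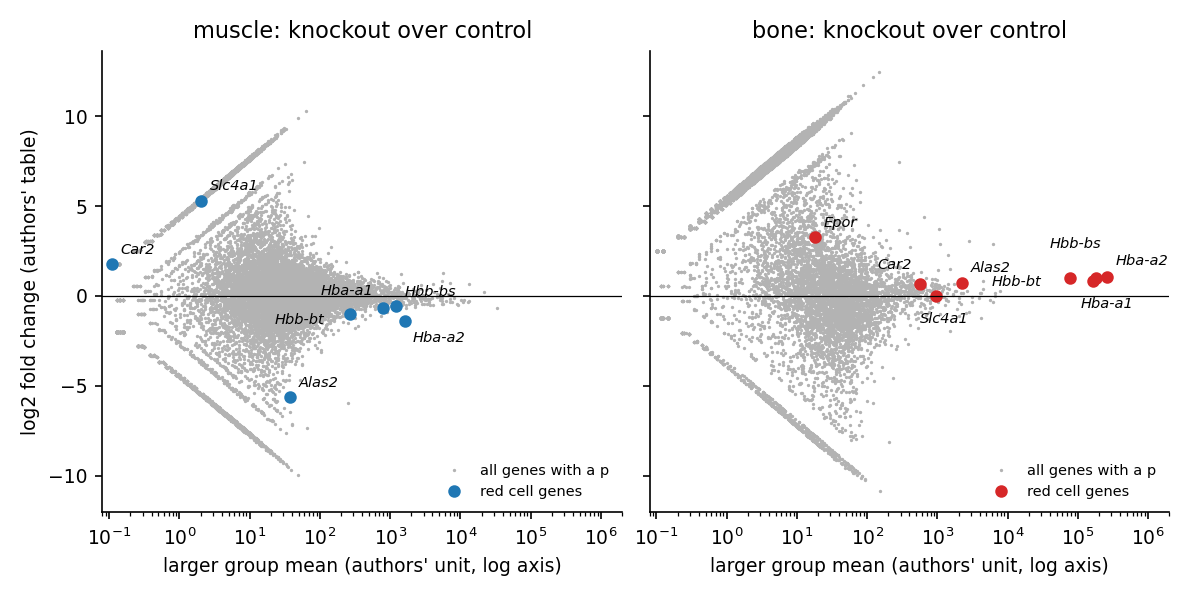
Authors' log2 fold change of knockout over control against larger group mean (log axis) for all genes with a p (grey) and the red cell genes (coloured) in muscle (left) and bone (right). In bone the 4 globins lie alone at the right, at 77991 and above. In muscle Slc4a1 and Car2 lie in the bands at low levels, and Hba-a2 lies below the other genes at 1000 and above.

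The signs of the globins were opposite in the 2 tissues, negative in muscle and positive in bone. Neither set of values passed in its own table, and the difference between the tissues was not tested, because the tables were normalized separately and their library columns could not be tied to groups.

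Other genes of the red cell programme were read from 6 lists holding 59 names, of which 57 were found. In muscle 23 of the 57 were listed at 0, in a table where 48.7% of all genes were. In bone 4 of the 57 were, in a table where 59.0% of all genes were. The listed genes at 0 in muscle included Gata1, Klf1 and Tal1, the transcription factors of red cell precursors, and Rhd and Kel, which encode blood group proteins of the red cell membrane. By list, 9 of 15 membrane genes and 4 of 8 transcription factors were at 0 in muscle, beside the 48.7% of all genes. So were 5 of 6 minor globins, 4 of 13 late red cell genes, 1 of 8 iron genes and 0 of 7 heme genes. Of the transcription factors, Lmo2 (37.1) and Zfpm1 (13.6) stood highest in muscle by the authors' deposited table.

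In bone every gene of the membrane, transcription factor, heme and late lists was above 0. All 15 membrane and skeleton genes reached 10, among them in the authors' deposited table Rhd (388), a Rhesus blood group gene, and Epb41 (251), which encodes a protein of the membrane skeleton. Of the 8 transcription factors, Klf1 (132), Nfe2 (128) and Zfpm1 (97.8), which encodes a partner of Gata1, stood highest by the authors' deposited table. Late red cell genes reached further. Bpgm, the bisphosphoglycerate enzyme that tunes oxygen release, had 1746, Bnip3l, which removes mitochondria from maturing red cells, 1160, and Prdx2, an abundant antioxidant enzyme of red cells, 1053 in the authors' deposited table.

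The heme pathway beyond Alas2 showed the same contrast of levels. Its 7 genes summed to 88.0 in muscle and 1652 in bone. For bone the authors' deposited table had the highest levels at Cpox (488) and Fech (423), whose enzyme inserts iron to form heme. In muscle the highest, Urod, was at 27.0 in the authors' deposited table. The ferritin genes differed from this pattern. Fth1, a ferritin chain of most cell types, stood at 5153 for muscle and 2020 for bone by the authors' deposited table. Ftl1, the other ferritin chain, stood at 1687 for muscle and 937 for bone. The 4 globins took 58.4% of the summed means in bone and 0.338% in muscle, and whether this bears on the ferritin levels was not tested.

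**Figure D4:**
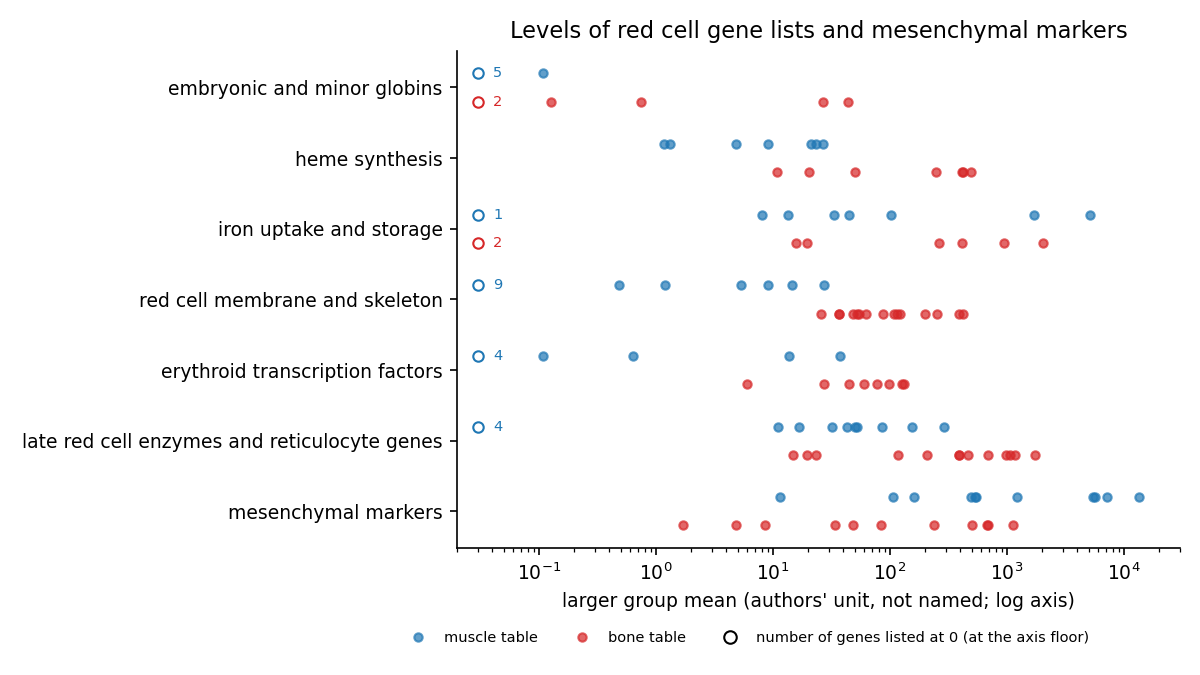
Larger group mean of each gene in 6 red cell lists and in the mesenchymal marker list, in the muscle table (upper row of each pair) and the bone table (lower row), on a log axis in the authors' unit. Open circles at the left carry the number of genes listed at 0. The 15 membrane genes all lie at 10 or above in bone while 9 are at 0 in muscle, and each mesenchymal marker except Cxcl12 is higher in the muscle table.

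None of the listed red cell genes passed the knockout test in either tissue. In muscle 19 of them held an FDR and 0 passed, and of the 34 with a p, 16 were positive, with a median of -0.09, where 53.5% of all genes were positive. By unadjusted p under 0.05, 4 of the 34 were lower and 1 higher, where 5.31% of all muscle genes with a p were lower and 6.41% higher. Bpgm had -4.70 (p = 0.000550, FDR = 0.150) at a level of 52.1 by the authors' deposited table. Tfrc, the transferrin receptor, had -3.79 (p = 0.00762, FDR = 0.352) at 44.6 in the authors' deposited table. Alad, an early heme enzyme, had -7.58 at 9.15, and Tfr2, a further transferrin receptor, 7.36 at 8.01 in the authors' deposited table, both without an FDR. Dividing by the fold change left 0.0477 for Alad in knockout samples and 0.0488 for Tfr2 in control samples, both under the lowest mean above 0 in the table (0.108). Of the 9 late red cell genes with a p in muscle, 8 were negative, with a median of -0.48. Other lists leaned the other way, with 4 of 7 heme genes (median 0.90), 4 of 6 membrane genes (2.08) and 3 of 4 transcription factors (0.92) positive. Of the iron genes 3 of 7 were positive (-0.06), and the 1 minor globin with a p was positive.

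In bone 51 of the listed genes held an FDR and 0 passed. Of the 53 with a p, 44 were positive, with a median of 0.59, between the medians of the abundant genes and of all genes. All 8 transcription factors were positive (median 1.11), as were 14 of 15 membrane genes (0.59), 10 of 13 late red cell genes (0.46), 5 of 7 heme genes (0.68) and 4 of 6 iron genes (0.33). Over all bone genes with a p, 69.7% were positive. Gata1 had 3.68 (p = 0.0739) at a level of 60.0 by the authors' deposited table. The genes of smallest p were Hbq1b, a minor alpha-like globin, at 10.71 (p = 0.00105) and Trim58, a gene of late red cell precursors, at 9.43 (p = 0.00366) in the authors' deposited table. Dividing Hbq1b (44.1) and Trim58 (19.6) by their fold sizes, 1678 and 689, left control estimates under the lowest mean above 0 in bone (0.101). Kel, which encodes the Kell blood group protein, had 5.11 (p = 0.0199), and Uros, a heme enzyme, 4.89 (p = 0.0299) in the authors' deposited table. These 4 had larger group means of 19.6 to 44.1 and an FDR of 0.0784 to 0.0970, which 32.2% of all bone genes with an FDR also held under 0.1. By unadjusted p under 0.05, 4 of the 53 were higher and 0 lower, where 28.8% of all genes with a p were higher and 4.20% lower. Of the 3032 genes higher at that threshold, 2103 lay under 10, while 50 of the listed genes lay at 10 or above.

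The embryonic globins were at or near 0. Hbb-bh2 was listed at 0 in both tables, and Hba-x, the embryonic zeta globin, at 0.108 for muscle and at 0 for bone by the authors' deposited table. The authors' deposited table listed Hbb-y at 0.750 and Hbb-bh1 at 0.125 in bone, and both were listed at 0 in muscle. Nearly all globin signal was thus on the adult genes.

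Markers of other cells were read beside these values. In muscle, all 11 mesenchymal markers were positive in the knockout and 1, Col1a2, passed (1.27, FDR = 0.00261 in the authors' deposited table), in the comparison in which the globins were negative. Their larger group means summed to 34806 in muscle and 3409 in bone. In bone 7 of these 11 markers were positive and 4 negative, with a median of 0.38, and 0 passed. Over all muscle genes, 53.5% of those with a p were positive and 0.127% of those with an FDR passed. In bone, all 10 neutrophil markers were positive in the knockout, where 69.7% of all genes with a p were positive. Of these markers 1, Ltf, passed (7.45, FDR = 0.000229 in the authors' deposited table), where 0.0352% of genes with an FDR did. This was the comparison in which the globins were positive. The neutrophil list had a median of 3.37 and summed to 12582 in bone, and summed to 35.1 in muscle. In muscle Ltf, Mpo and Elane were listed at 0, and 4 of the 7 markers with a p were positive (median 1.06). S100a8 was among the 3 negative ones, at -5.46 (p = 0.0163, no FDR) by the authors' deposited table. Of 9 macrophage markers in bone, 8 were positive (median 7.52) and 0 passed, and the list summed to 1492 in bone and 93.2 in muscle. Only 5 of these 9 reached a level of 10 in bone, and all bone genes under 10 had a median of 4.99. Of the B cell markers 4 of 5 with a p were positive in bone and 2 of 4 in muscle, of the platelet markers 2 of 5 and 3 of 5, and of the endothelial markers 2 of 2 and 3 of 7, with 0 passing. The part of these cells in the globin values was not tested.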

How the data were processed

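Per the labels' protocols, sorted-cell RNA went through Qiagen columns into Lexogen QuantSeq 3' libraries. The kit reads transcript ends, so a value does not grow with gene length. The submitters' processing notes name GRCm38 and mm10, but only 2.20% of 25600 genes matched by Ensembl ID have their GRCm38 span in the tables. Positions given are therefore those of GENCODE M21 on GRCm38. The names of the aligner, counter and test were not given in the sources used here.

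Per the file headers, log2 fold changes put knockout over control, and the deposited fold changes are the same on a linear scale with lower genes written as negative scores. The deposited p-values, FDR and Bonferroni values are the authors'. The larger group mean is a score of the authors, per the file headers, with no unit named. A further 48 columns of values from 12 libraries carry codes that match no label and were not used. The planned edgeR tests, which need them, were not run, so depth and replicate error are unknown.

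Genes whose deposited FDR lay under 0.05 were called. Means of the smaller group were estimated as the larger mean divided by the size of the fold change. Benjamini-Hochberg code was tested on simulated data. All 9 genes were named in each tissue, with up to 4 genes of smallest p and 3 of highest mean of each related list, some of which are not reported here. Since no column could be assigned, no genes of like pattern were named. The genes, lists and thresholds were chosen with earlier results of these data known. Alternatives were other adjustments, thresholds, filters, centring and denominators. Python 3.11.15, pandas 2.3.3, numpy 2.4.6 and matplotlib 3.10.9 were used.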

Additional observations from a re-analysis of the deposited data

How the results depend on the processing

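None of the 8 globin and red cell genes passed in either tissue under the alternatives run: adjustment over every gene with a p, Bonferroni, an FDR of 0.1, or larger group means of at least 5 or 50. The number of all genes called moved to 4 in muscle and 1 in bone with Bonferroni, against 9 and 3. In bone it was 2751 at an FDR of 0.1, where 4 of the listed red cell genes were called, and 10 with larger group means of at least 50. Centred on the median of all bone genes with a p, the log2 fold changes in bone turned negative for Hba-a1 (-1.69), Hba-a2 (-1.48), Hbb-bs (-1.49), Hbb-bt (-1.52), Alas2 (-1.77) and Car2 (-1.85). That shift is by construction, since the median is 2.51. No sign changed in muscle, nor in bone with centring on abundant genes. Without mitochondrial transcripts in the denominator, the share of the 8 genes moved to 0.371% in muscle and 61.3% in bone, against 0.342% and 58.7%. For the 4 globins alone it was 0.338% and 58.4%. No paired analysis was possible because the columns carry codes with no replicate number. For the same reason the other normalization, the count filter, the library size without globins and leaving out each replicate were not run. Depth is unknown, so a miss of the threshold does not show that the groups are alike.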
